A study of Homo sapiens with 18 samples.

Results

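The short arm of chromosome 19 (19p) carries one of the densest groups of zinc finger genes in the human genome. The genes described here are the protein-coding genes on chromosome 19 whose symbol is ZNF followed by a number and at most 1 letter, with a start below 26.2 Mb on GRCh38. The rule gave 83 genes of the 19970 protein-coding genes on chromosomes 1 to 22 and X. The rule uses symbol and position alone, but the set was chosen with earlier results of these data known. ZNF254, with its start at 24.03 Mb, was the last gene inside the limit, and ZNF536, at 30.2 Mb, was the first outside it. Gene bodies of the 83 genes ran from 4.49 to 96.5 kb, with a median of 28.3 kb.

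Chromatin immunoprecipitation with sequencing (ChIP-seq) was done in U937, an established acute myeloid leukaemia line. H3K9me3 and H3K27me3 were mapped in U937 cells knocked out for both SUV39H1 and SUV39H2 (DKO), in cells knocked out for SUV39H1 alone (SKO) and in cells given a control guide (sgControl), with 2 libraries for each mark and genotype. SETDB1 was mapped in 2 libraries of wild-type (WT) U937 cells, so its values belong to none of those 3 genotypes. All cells were kept in the same serum-supplemented medium, and the labels name no drug or other treatment. Nothing in the labels tells whether a knockout line is 1 clone or a pool, or whether 2 libraries of a genotype stem from independent cultures, and their spread may therefore be technical. The deposited lists hold no expression, so neither the knockouts nor the identity of the line could be checked from them.

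Most zinc finger proteins encoded on 19p carry a KRAB domain, which recruits the corepressor TRIM28 and, through it, the H3K9 methyltransferase SETDB1 to the DNA that the fingers bind, often a retrotransposon. The genes arose by tandem duplication and lie in clusters, and their own bodies are known as large blocks of H3K9me3, with TRIM28 and SETDB1 at the exons that encode the fingers. SUV39H1 and SUV39H2 are the H3K9 methyltransferases best known from constitutive heterochromatin. H3K27me3 is set by Polycomb complexes and usually occupies other territory than H3K9me3.

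For each library the measure was the percentage of the gene body inside its called domains. A gene was called gained or lost where the 2 libraries of one genotype did not overlap the 2 libraries of the other and the nearest pair lay at least 25 percentage points apart. The calls follow a fixed rule and carry no p-value of their own. Limma on the same percentages was run as an alternative, and its result stands beside the counts where it ends calls. Reads inside H3K9me3 domains numbered 20.6 and 16.5 M (mega) in DKO, 21.0 and 20.2 M in SKO, and 23.6 and 17.97 M in sgControl. Reads inside H3K27me3 domains numbered 69.3 and 47.9 M in DKO, 70.7 and 59.9 M in SKO, and 50.3 and 48.5 M in sgControl. Members have near-identical relatives, and how reads matching several of them were placed is not stated in the labels, so the value of a single member is uncertain.

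H3K9me3 covered nearly the whole of these genes in every genotype, and no gene lost it in a knockout. Over the 83 genes the mean percentage of the gene body in H3K9me3 domains was 94.7% and 94.5% in the DKO libraries, 94.8% and 95.3% in the SKO libraries, and 87.4% and 85.3% in the sgControl libraries. Both knockouts thus lay above both sgControl libraries. All protein-coding genes averaged 16.2% ± 0.214 in DKO, 16.1% ± 0.122 in SKO and 16.6% ± 0.596 in sgControl (SD, n = 2 libraries each). Of the 83 genes, 68 were covered over their whole length in both DKO libraries, 68 in both SKO libraries and 35 in both sgControl libraries. Over the genome, H3K9me3 domains covered less in the knockouts, with 795 and 788 Mb in DKO, 754 and 756 Mb in SKO, and 1044 and 1013 Mb in sgControl. The domains that touched these genes were fewer and wider in the knockouts. They numbered 33 and 29 in DKO, 30 and 26 in SKO, and 57 and 57 in sgControl, and the widest reached 644 and 574 kb in DKO, 988 and 990 kb in SKO, and 389 and 425 kb in sgControl.

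Against sgControl, 0 of the 83 genes lost H3K9me3 in DKO (background 4.23% of all protein-coding genes) and 0 in SKO (background 4.50%), although 76 were covered highly enough in sgControl to be called lost. Gains numbered 6 in DKO (background 3.84%) and 6 in SKO (background 4.11%), of only 9 genes with room for a gain, and the comparisons share the sgControl libraries. Without the first sgControl library the gains in SKO numbered 10. The 6 genes were ZNF99, ZNF98, ZNF443, ZNF254, ZNF676 and ZNF492 in both comparisons. With limma on the percentages, 2 of the 6, ZNF443 and ZNF254, passed the threshold of 0.05 in each comparison and 4 did not. In those 4 the adjusted p by limma was 0.0605 and 0.0573 for ZNF99 in DKO and SKO, 0.0709 and 0.0634 for ZNF676, 0.111 and 0.0845 for ZNF98, and 0.177 and 0.117 for ZNF492. DKO against SKO gave 0 losses (background 1.34%) and 0 gains (background 1.46%).

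ZNF99, toward the centromeric end of the arm, showed the widest gap. Its body was covered over 100% in both DKO and both SKO libraries, against 37.0% and 0% in sgControl. ZNF443 was covered over 100% in all 4 knockout libraries, against 55.6% and 48.6% in sgControl. ZNF492 had 88.0% and 83.2% in DKO and 100% and 88.0% in SKO, against 14.6% and 50.6% in sgControl. In these 3 genes the knockout libraries lay close together and the sgControl libraries below all of them, with the 2 sgControl libraries well apart in ZNF99 and ZNF492. At the other end, 35 genes had 100% in all 6 libraries, and ZNF358, ZNF414 and ZNF653 had no H3K9me3, no H3K27me3 and no SETDB1 peak in any library. These 3 genes lie away from the dense part of the clusters, ZNF358 and ZNF414 on their own and ZNF653 at the outer edge of one.

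**Figure D1:**
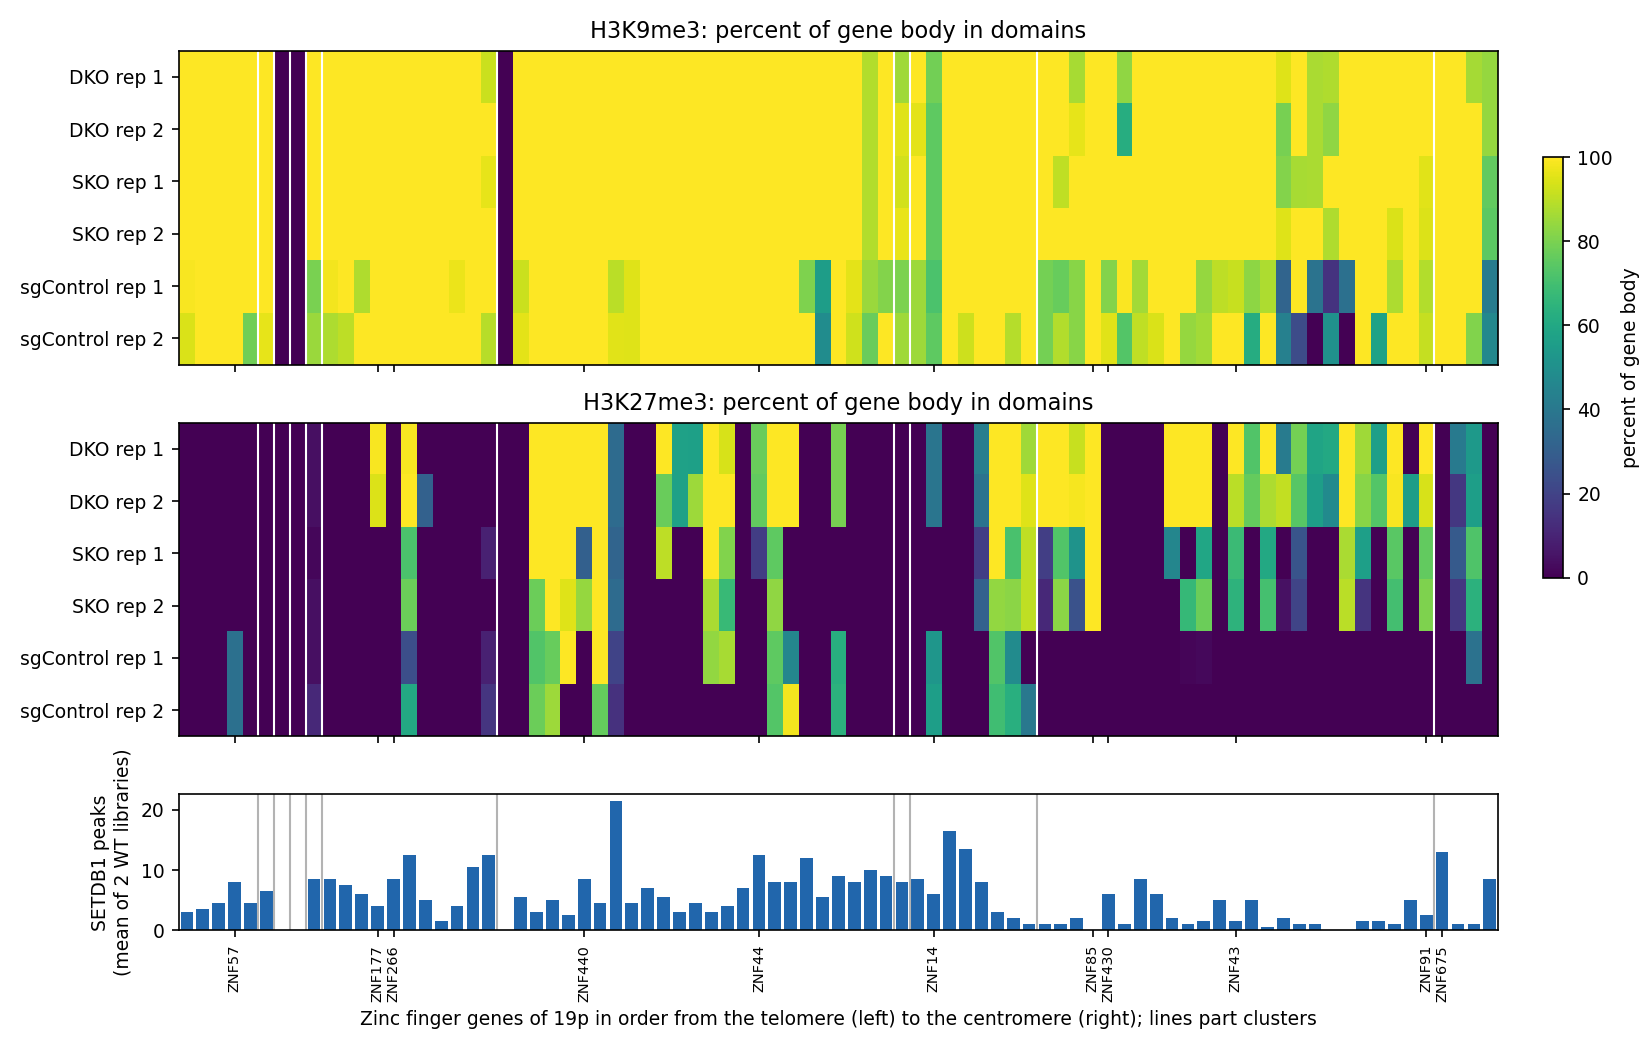
Percentage of the gene body inside H3K9me3 domains (top) and H3K27me3 domains (middle) for the 83 zinc finger genes of 19p, 1 column per gene in order from the telomere to the centromere and 1 row per library, with the mean number of WT SETDB1 peaks within 2 kb below (bars). H3K9me3 fills almost every column, with gaps in the sgControl rows, while H3K27me3 covers 37 genes over at least 50% in both DKO libraries, 20 in both SKO libraries and 7 in both sgControl libraries.

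The gaps of sgControl lay toward the start of the genes. In the 73 members with a strand in the reference table, the bodies were cut into 3 equal parts. The part nearest the start was covered over 93.1% and 92.9% in DKO, 93.3% and 93.9% in SKO, and 82.4% and 80.8% in sgControl. The part nearest the end was covered over 95.3% and 95.3% in DKO, 95.5% and 95.3% in SKO, and 92.9% and 93.4% in sgControl. Promoters differed likewise. At least 50% of the promoter window, from 250 bases before to 50 bases after the start, lay inside an H3K9me3 domain in both libraries for 67 of 73 genes in DKO, 67 in SKO and 45 in sgControl. Over all 15811 genes with a promoter in the reference table, the shares were 10.8% in DKO, 10.8% in SKO and 11.4% in sgControl.

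The number of reads in the domains also differed between genotypes. Relative read density is the read count of the domains over a gene per kb, divided by the median of the 10 kb bins marked in all 6 libraries, so a density of 1 is the typical level of shared H3K9me3 in that library. The 73 genes covered over at least 50% in all 6 libraries had median relative densities of 2.53 and 2.66 in DKO, 2.77 and 2.73 in SKO, and 1.25 and 1.23 in sgControl. The lowest and highest genes stood at 0.944 and 6.61 in the first DKO library, 0.946 and 6.41 in the first SKO library, and 0.751 and 1.72 in the first sgControl library. All bins of 19p that were marked in all 6 libraries, 612 in number, showed the same order: 1.82 and 1.69 in DKO, 2.04 and 1.85 in SKO, and 0.994 and 0.955 in sgControl. The bins over the members themselves are among them, so this order is partly built in.

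In limma fitted over 1518 genes, with p-values adjusted by the Benjamini-Hochberg method over all of them, density was higher in DKO for 71 of the 73 members (background 38.5%) and in SKO for 71 (background 43.1%). It was lower for 0 in DKO (background 16.9%) and 0 in SKO (background 19.3%). The median log2 change of the members was 0.94 in DKO and 1.05 in SKO, against 0.11 and 0.16 for all genes tested. Neighbours often lie in 1 domain and then carry 1 density, so the 73 genes hold 46 distinct profiles. The lists hold no spike-in factor, so these values are relative to the rest of the marked genome and not amounts of the mark.

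ZNF557, which stands apart from the clusters, had the highest density. It measured 6.61 and 4.51 in DKO, 6.41 and 6.49 in SKO, and 1.72 and 2.16 in sgControl. The log2 change was 1.50 in DKO (SE 0.20, adjusted p = 0.00219, limma) and 1.74 in SKO (SE 0.20, adjusted p = 0.00103, limma). Its knockout libraries all lay above both sgControl libraries. ZNF791 measured 2.82 and 3.04 in DKO, 2.81 and 2.99 in SKO, and 1.15 and 1.14 in sgControl. ZNF699, a relative of the fly gene hangover, changed by 1.27 in DKO and 1.31 in SKO on the log2 scale. ZNF714 and ZNF101 in SKO, at 1.35 and 1.33, and ZNF490 and ZNF486 in DKO, at 1.32 and 1.31, were also among the 5 largest rises on that scale. Many of these densities are averages over domains shared with neighbours, as for ZNF714 in SKO and ZNF486 in DKO.

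The smallest changes of density were found in ZNF85, ZNF626, ZNF558, ZNF737 and ZNF257 in DKO and in ZNF626, ZNF558, ZNF726, ZNF66 and ZNF730 in SKO. All but ZNF558 and ZNF726 lie in the long cluster from ZNF737 to ZNF91. ZNF558, which represses the mitophagy gene SPATA18 in human neural progenitors, measured 1.45 and 1.46 in DKO, 1.36 and 1.55 in SKO, and 1.28 and 1.17 in sgControl and missed the threshold in DKO (adjusted p = 0.0542, limma) and in SKO (adjusted p = 0.0521, limma). The other members to miss it were ZNF85 in DKO (adjusted p = 0.332, limma) and ZNF726 in SKO (adjusted p = 0.0614, limma). ZNF626 changed by 0.23 in DKO and 0.20 in SKO on the log2 scale (adjusted p = 0.0226 and 0.0280, limma). ZNF85 had the largest difference between DKO and SKO among the 73 members. Its density was 1.20 and 1.26 in DKO, 2.04 and 1.85 in SKO, and 1.08 and 1.21 in sgControl, although its body was covered over 100% in all 6 libraries. The DKO libraries overlapped the sgControl libraries and the SKO libraries lay above both, with a log2 change of -0.66 in DKO against SKO (SE 0.08, adjusted p = 0.0234, limma). In SKO, however, ZNF85 shared a wide domain with ZNF430, which had the same 2.04 and 1.85. In DKO the values of ZNF430 were 1.90 and 2.20, apart from those of ZNF85. The SKO density of ZNF85 is thus an average over that domain, and the difference cannot be placed at the gene itself.

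In DKO against SKO, 1 member was higher (ZNF726, log2 change 0.43, adjusted p = 0.0453, limma; background 5.07%) and 7 were lower (background 9.55%). The 7 were ZNF85, ZNF737 and the 5 genes of the cluster from ZNF554 to ZNF77, which share 1 density profile. Leaving out any 1 of the 6 libraries left at most 1 member lower and 0 higher, and a fit with the replicate number as a block left 0 in either direction.

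**Figure D2:**
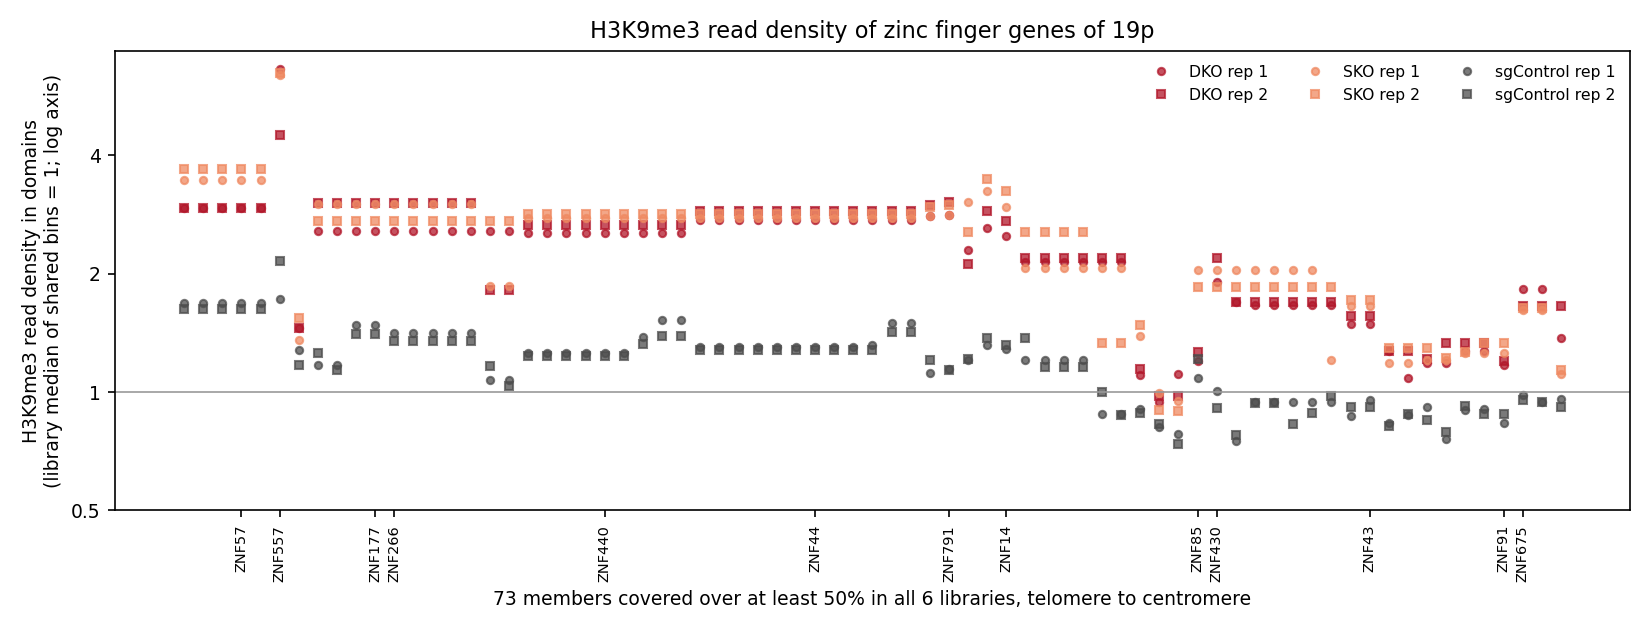
Relative H3K9me3 read density (log axis; 1 is the library median of bins marked in all 6 libraries) of the 73 members covered over at least 50% in all 6 libraries, in order from the telomere to the centromere. Each point is a gene in 1 library, coloured by genotype. The DKO and SKO points lie near 2.5 to 2.8 over much of the arm and the sgControl points near 1.2, and runs of equal height are neighbours inside 1 domain.

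H3K27me3 domains appeared over many of these genes in the knockouts, where H3K9me3 domains lay too. The mean percentage of the gene body in H3K27me3 domains was 43.5% and 44.7% in the DKO libraries, 25.2% and 23.6% in the SKO libraries, and 12.2% and 10.2% in the sgControl libraries. The genotypes did not overlap. All protein-coding genes stayed within a narrow range, at 15.5% ± 0.260 in DKO, 15.0% ± 0.0974 in SKO and 15.1% ± 0.0232 in sgControl (SD, n = 2 libraries each). H3K27me3 domains covered more of the genome in the knockouts, with 1225 and 1198 Mb in DKO, 1210 and 1200 Mb in SKO, and 1058 and 1062 Mb in sgControl. With every list shortened to equal length by its lowest scores, the means were 38.6% in DKO, 16.2% in SKO and 10.8% in sgControl.

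Gains numbered 30 of the 83 genes in DKO (background 3.82%) and 12 in SKO (background 3.38%), and losses 1 in DKO (background 3.0%) and 4 in SKO (background 3.15%). Both comparisons use the same sgControl libraries. DKO against SKO gave 18 gains (background 0.726%) and 0 losses (background 0.366%). With limma on the percentages, 20 of the 31 calls in DKO, 11 of the 16 in SKO and 8 of the 18 in DKO against SKO passed the threshold of 0.05. In sgControl, 75 of the 83 genes were low enough to be called gained and 10 high enough to be called lost. Of the 30 genes gained in DKO, 23 had no H3K27me3 in either sgControl library, and all 30 had at least 75% of the body in H3K9me3 domains in both DKO libraries. Of the other 53 genes, 35 had no H3K27me3 domain in any of the 6 libraries, 1 was lost and 17 met neither description.

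Genes with 50% or more of the body in both marks, in both libraries of each, numbered 37 in DKO, 20 in SKO and 7 in sgControl. The marks were mapped in separate libraries, so these counts do not show both on the same chromosome copy or in the same cell. The 7 genes that carried H3K27me3 over at least 50% in both sgControl libraries were ZNF439, ZNF441, ZNF823, ZNF563, ZNF682, ZNF709 and ZNF14. Of these, 5 were covered at that level in all 6 libraries, so their H3K27me3 read density could be compared: it was higher in DKO for 5 of 5 (background 27%) and in SKO for 4 of 5 (background 24.7%), and lower for 0 in DKO (background 28.3%) and 0 in SKO (background 32.8%). ZNF682 had a log2 change of 0.87 in DKO (SE 0.04, adjusted p = 4.65e-05, limma) and 0.55 in SKO (SE 0.04, adjusted p = 0.000209, limma). In DKO against SKO density was higher for 4 of the 5 (background 10.6%) and lower for 0 (background 5.88%), with log2 changes of 0.31 to 0.32 in the 4. Without either DKO library, or either SKO library, the count was 2.

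ZNF85 and ZNF91 lie in the same cluster, and ZNF91 is known in human cells to repress SVA and L1PA retrotransposons. ZNF85 had H3K27me3 over 100% of its body in both DKO and both SKO libraries, against 0% in both sgControl libraries. ZNF91 had 100% and 93.8% in DKO and 76.1% and 80.5% in SKO, against 0% and 0% in sgControl. ZNF43 had 100% and 89.8% in DKO and 68.0% and 64.7% in SKO, against 0% and 0% in sgControl. All 3 genes were thus free of the mark in the control cells and covered in both knockouts. ZNF99 had 100% and 100% in DKO and 87.5% and 89.5% in SKO, against 0% and 0% in sgControl, so it gained both marks. ZNF93, which represses L1PA elements in human cells, was called in DKO and not in SKO against sgControl, with 42.7% and 38.0% there, 18.5% and 31.1% in SKO, and 0% and 0% in sgControl.

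A further group was covered in DKO and little or not at all in SKO. ZNF177 had 98.9% and 94.8% in DKO, 0% and 0% in SKO, and 0% and 0% in sgControl. ZNF737 had 100% and 100% in DKO, 18.4% and 11.6% in SKO, and 0% and 0% in sgControl. ZNF208 had 73.0% and 76.4% in DKO, 0% and 0% in SKO, and 0% and 0% in sgControl. In these genes both DKO libraries stood above all others by more than 50 percentage points. ZNF44, ZNF878, ZNF844, ZNF728, ZNF98, ZNF738, ZNF729 and ZNF492 were also called higher in DKO than in SKO. Not all of them were free of the mark in SKO. ZNF738 had 46.0% and 0% there, ZNF729 25.9% and 20.7%, and ZNF44 18.2% and 0%, while the others named had 0% and 0%. ZNF626, ZNF440, ZNF730 and ZNF429 were not of this group, since they were called gained in SKO too. They had 98.9% to 100% in both DKO libraries, and 30.6% to 84.1% in the SKO libraries. ZNF493 had 100% and 100% in DKO, 0% and 66.9% in SKO, and 1.24% and 0% in sgControl.

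Loss in SKO was called in 4 genes (4.82%, background 3.15%), near the share over all genes. With the upper 50% of domains by score, which left a mean of 1.24% in sgControl, 0 genes were called lost in SKO and 0 in DKO. ZNF709 had 79.6% and 79.6% in DKO, 0% and 0% in SKO, and 62.7% and 64.4% in sgControl. ZNF14 had 38.9% and 38.9% in DKO, 0% and 0% in SKO, and 52.7% and 56.2% in sgControl. ZNF442 had 100% and 100% in DKO, 0% and 0% in SKO, and 46.0% and 98.4% in sgControl. These 3 genes thus had the mark in DKO and in sgControl and none in SKO. By limma on the percentages, ZNF442 missed the threshold in SKO against sgControl (adjusted p = 0.307) and in DKO against SKO (adjusted p = 0.510). ZNF57 had 0% in both DKO and both SKO libraries, against 36.9% and 36.9% in sgControl, and was the only member called lost in DKO. ZNF257 and ZNF486 were gained in both knockouts. ZNF726, at 53.6% and 56.0% in DKO, 72.4% and 64.1% in SKO, and 37.5% and 0% in sgControl, was called in SKO only, and its change in SKO turned to -18.8 percentage points when the lists were brought to equal length.

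**Figure D3:**
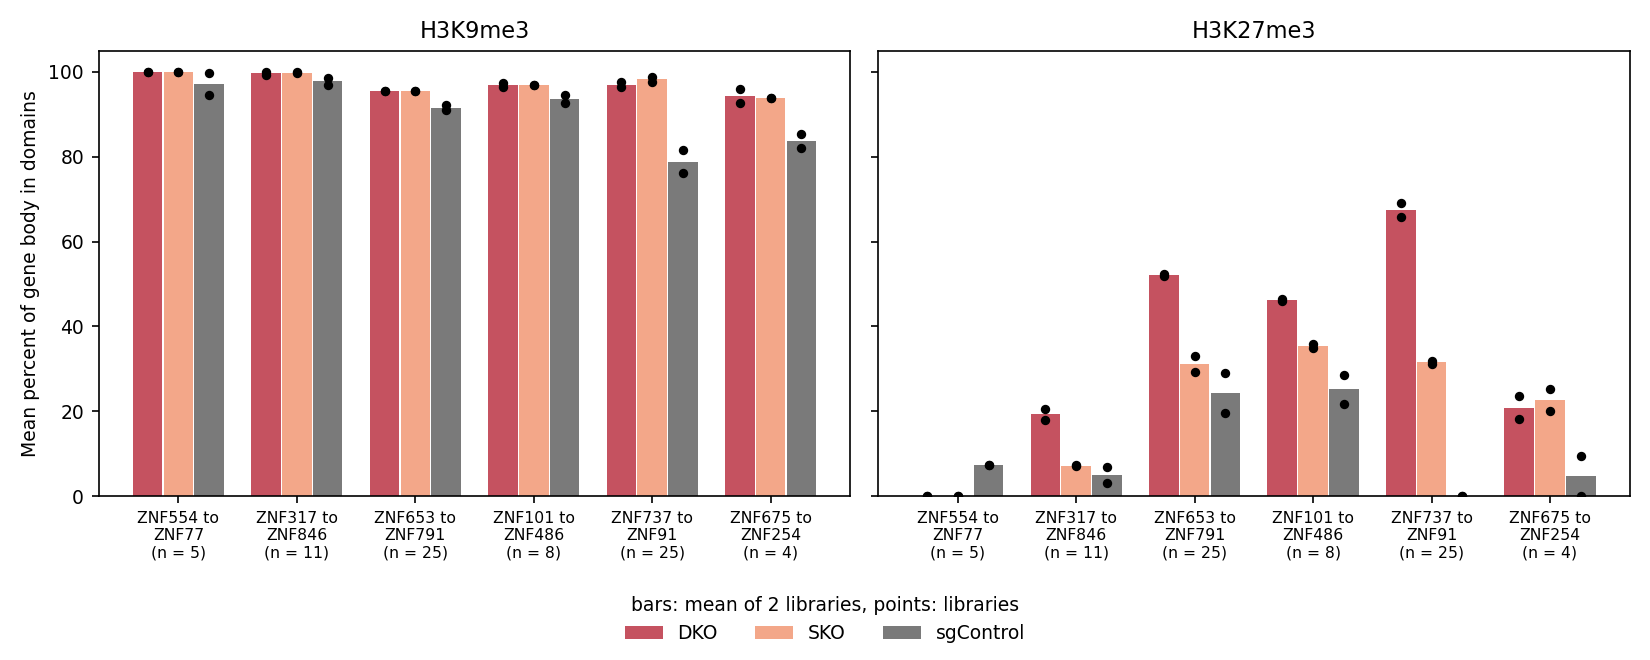
Mean percentage of the gene body in H3K9me3 domains (left) and H3K27me3 domains (right) for the 6 clusters with at least 4 members, in order from the telomere. Bars are means of 2 libraries, in the order DKO, SKO, sgControl, and points are the libraries. For H3K27me3 the cluster from ZNF737 to ZNF91 has 65.9% and 69.0% in DKO, 31.9% and 31.2% in SKO, and 0.141% and 0% in sgControl.

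Along the arm the genes formed 11 groups when starts within 250 kb were joined, 5 of them single genes. The 2 largest, with 25 genes each, behaved differently. The cluster from ZNF737 to ZNF91, at chr19:20530276-23395471, averaged 67.4% ± 2.24 H3K27me3 in DKO, 31.5% ± 0.488 in SKO and 0.0703% ± 0.0995 in sgControl (SD over 2 libraries each), and held 19 of the 30 genes gained in DKO and 9 of the 12 gained in SKO. The cluster from ZNF653 to ZNF791, at chr19:11483429-12633834, averaged 52.2% ± 0.302 in DKO, 31.1% ± 2.78 in SKO and 24.3% ± 6.65 in sgControl, with 5 gains in DKO, 1 gain in SKO and 2 losses in SKO. Gene bodies of the first cluster had almost no H3K27me3 in sgControl, while those of the second already carried it. No test of the difference between the clusters was made, since genes of 1 cluster share domains.

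H3K27me3 in the ZNF737 to ZNF91 cluster was not limited to gene bodies. Between the bodies, 84.2% and 82.0% of the sequence lay in H3K27me3 domains in DKO, 52.4% and 51.6% in SKO, and 6.81% and 9.17% in sgControl. The cluster from ZNF317 to ZNF846 went the other way, with 40.1% and 40.6% between bodies in DKO and 41.0% and 45.2% in SKO, against 50.9% and 59.1% in sgControl. The cluster from ZNF554 to ZNF77 had 0% between bodies in both DKO and both SKO libraries, against 5.31% and 12.6% in sgControl. The other 3 clusters were higher between bodies in all knockout libraries, as in the cluster from ZNF653 to ZNF791, with 46.4% and 42.6% in DKO and 32.3% and 34.5% in SKO, against 26.7% and 23.5% in sgControl. The ZNF737 to ZNF91 cluster also had the lowest H3K9me3 in sgControl of the 6 clusters with at least 4 genes, at 78.8% ± 3.89, against 97.0% ± 0.906 in DKO and 98.3% ± 0.868 in SKO. The 5 genes nearest the telomere, from ZNF554 to ZNF77, had no H3K27me3 in either knockout. In the cluster from ZNF317 to ZNF846, ZNF177 and ZNF560 were gained in DKO, while ZNF266, ZNF121, ZNF699 and ZNF317 had 0% in all 6 libraries. Of the 35 genes at 0% throughout, 30 lay outside the ZNF737 to ZNF91 cluster and 5 inside it, ZNF430, ZNF714, ZNF431, ZNF708 and ZNF100.

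SETDB1 peaks marked nearly all of these genes. A peak lay within 2 kb of the gene in both WT libraries for 74 of the 83 genes (89.2%), against 20.6% of all protein-coding genes and 15.0% of the other 565 genes of 19p. The genes had medians of 5 and 5 peaks in the 2 libraries, and 14.5 and 15.1 peaks per 100 kb, against 0.929 and 0.955 per 100 kb over all genes. A peak was found in neither library for 6 genes, which besides ZNF358, ZNF414 and ZNF653 were ZNF85, ZNF492 and ZNF99, and in 1 library for 3 genes. Most peaks fell on ZNF69, with 20 and 23, a locus that overlaps ZNF700 and ZNF763. ZNF506 had 17 and 16, ZNF253 had 15 and 12, and ZNF675, whose product inhibits TRAF6 signalling, had 14 and 12. Peak summits were spread over the body, with 35.8% and 37.8% in the part nearest the end when it was cut into 3 equal parts.

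Of the 6 clusters with at least 4 genes, the one with most H3K27me3 in DKO held the fewest SETDB1 peaks for its length. Peaks per 100 kb were 2.65 and 2.55 in the ZNF737 to ZNF91 cluster and 20.9 and 22.1 in the ZNF653 to ZNF791 cluster. In classes of peak number that were chosen after the values were seen, the 26 genes with a mean of at most 2 peaks averaged 67.7% ± 0.383 H3K27me3 in DKO, 37.2% ± 0.846 in SKO and 3.70% ± 0.372 in sgControl, and 19 of them were gained in DKO. The 29 genes with more than 6 peaks averaged 21.9% ± 0.119 in DKO, 9.87% ± 1.42 in SKO and 11.3% ± 2.34 in sgControl, and 4 were gained in DKO. The classes are not independent of position, since 18 of the 26 genes with few peaks and 1 of the 29 with many lie in the ZNF737 to ZNF91 cluster. Across the 83 genes Spearman's rho between peaks per 10 kb and the H3K27me3 difference was -0.53 for DKO minus sgControl and -0.49 for SKO minus sgControl. Within the 25 genes of the ZNF737 to ZNF91 cluster it was -0.49 for DKO and -0.55 for SKO, and within the 25 of the ZNF653 to ZNF791 cluster -0.22 for both. These are descriptions across genes, which share domains, libraries and near-identical sequence, and carry no test.

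**Figure D4:**
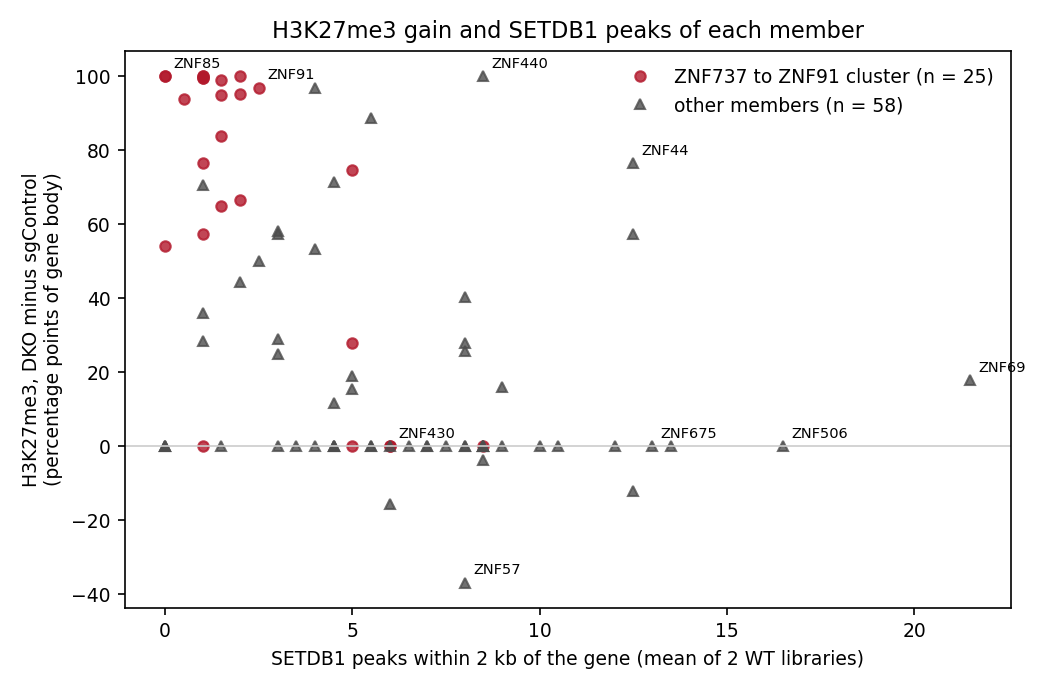
Difference of H3K27me3 between DKO and sgControl, in percentage points of the gene body (means of 2 libraries), against the mean number of SETDB1 peaks within 2 kb in WT cells, 1 point per gene. Points of the ZNF737 to ZNF91 cluster (circles) gather at few peaks and large gains, while ZNF675, ZNF506 and ZNF430 have 6 or more peaks and a difference of 0, and ZNF440 and ZNF44 gained H3K27me3 with 8.5 and 12.5 peaks.

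Some neighbours with related promoters differed in H3K27me3 and in SETDB1. ZNF85 and ZNF430 start 97.4 kb apart, and their promoter windows are 81.4% identical in a global alignment. ZNF91 and ZNF675 start 348 kb apart, with 65.9% identity. Across the pairs, ZNF85 and ZNF91, which start 2382 kb apart, are 81.1% identical, and ZNF430 and ZNF675 65.7%. Identity was taken over the whole alignment, with gaps at the ends counted as mismatches. The ZNF675 window is shifted upstream relative to the others, so its lower values partly reflect where its start is annotated. They cannot be set against H3K27me3. These 4 promoters are shown because 1 of each pair took up H3K27me3 in both knockouts and the other had none in any library. The sequences are RefSeq's on GRCh38.p14, from 250 bases before to 50 bases after the start, 5′ to 3′ on the gene's strand, and capitals mark CpG dinucleotides. ZNF85 lies at chr19:20923001-20923300 on the plus strand, ZNF430 at chr19:21020407-21020706 on the plus strand, ZNF91 at chr19:23395422-23395721 on the minus strand and ZNF675 at chr19:23687163-23687462 on the minus strand.
ZNF85: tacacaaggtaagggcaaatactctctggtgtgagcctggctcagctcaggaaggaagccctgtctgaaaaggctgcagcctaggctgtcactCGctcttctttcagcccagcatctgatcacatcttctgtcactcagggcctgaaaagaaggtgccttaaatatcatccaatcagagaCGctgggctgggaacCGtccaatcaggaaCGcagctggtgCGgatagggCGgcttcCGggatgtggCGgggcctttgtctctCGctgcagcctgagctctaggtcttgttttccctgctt
ZNF430: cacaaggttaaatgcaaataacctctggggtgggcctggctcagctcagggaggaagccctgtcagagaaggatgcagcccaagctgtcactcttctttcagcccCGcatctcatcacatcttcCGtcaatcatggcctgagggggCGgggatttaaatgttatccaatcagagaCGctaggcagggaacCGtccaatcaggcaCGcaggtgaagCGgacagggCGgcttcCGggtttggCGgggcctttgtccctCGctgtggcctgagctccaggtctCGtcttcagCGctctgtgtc
ZNF91: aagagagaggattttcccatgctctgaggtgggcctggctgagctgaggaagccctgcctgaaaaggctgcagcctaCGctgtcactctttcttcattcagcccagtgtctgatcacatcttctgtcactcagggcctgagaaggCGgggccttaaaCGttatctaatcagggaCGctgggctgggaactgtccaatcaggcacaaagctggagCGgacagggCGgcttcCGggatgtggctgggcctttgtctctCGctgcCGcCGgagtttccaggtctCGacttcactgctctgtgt
ZNF675: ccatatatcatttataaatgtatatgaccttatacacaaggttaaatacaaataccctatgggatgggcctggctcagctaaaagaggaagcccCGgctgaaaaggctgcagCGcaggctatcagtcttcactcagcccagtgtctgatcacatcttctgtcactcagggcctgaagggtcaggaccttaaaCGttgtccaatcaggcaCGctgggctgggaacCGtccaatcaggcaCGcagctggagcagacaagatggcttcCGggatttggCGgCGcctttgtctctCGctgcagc

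The windows held 9 CpG in ZNF85, 13 in ZNF430, 11 in ZNF91 and 10 in ZNF675. The ZNF85 window lay wholly in H3K27me3 domains in all 4 knockout libraries and in neither sgControl library, and so did that of ZNF91. The ZNF430 and ZNF675 windows lay in none. The genes had 0 and 0 SETDB1 peaks within 2 kb at ZNF85, 9 and 3 at ZNF430, 3 and 2 at ZNF91, and 14 and 12 at ZNF675. In both pairs the gene with H3K27me3 thus had fewer peaks than its partner. The pairs were picked with their H3K27me3 values seen, and not all members went that way. ZNF714, in the same cluster as ZNF85, had 1 and 1 peaks and no H3K27me3 in any library. ZNF440 had 9 and 8 peaks and 100% H3K27me3 in both DKO libraries. The ZNF430 window lay in an H3K9me3 domain in all 4 knockout libraries and in neither sgControl library, while those of ZNF85, ZNF91 and ZNF675 lay in one in all 6 libraries.

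Promoters of the members differed in composition from those of other genes. The table held 73 of the 83 members, whose windows had a median of 15 CpG, from 8 to 34, against a median of 22 in 15811 genes. Of the members in the table, the 24 gained for H3K27me3 in DKO had a median of 10.5 CpG, and the 48 that were not called had 16.5. These groups are not independent of position. The 5 genes of the ZNF737 to ZNF91 cluster without H3K27me3 in any library had 9 (ZNF708) to 14 (ZNF431) CpG. Gained genes outside that cluster had 9 (ZNF682) to 22 (ZNF433). At least 50% of the window lay in H3K27me3 domains in both libraries for 28 of the 73 members in DKO, 15 in SKO and 5 in sgControl, against 13.6%, 13.0% and 13.6% of all genes. A SETDB1 peak covered part of the window in both libraries for 14 members (19.2%) and 3.85% of all genes, so most SETDB1 peaks of the members lay elsewhere in the gene.

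On either strand, the CCAAT box (CCAAT) was found in 82.2% of the members' windows and 36.3% of all windows. The GC box (GGGCGG) was found in 82.2% and 58.5%, and the ETS site (CCGGAAG) in 38.4% and 14.2%. The TATA box (TATAAA) was found in 4.11% of members and 9.64% of all windows. The YY1 site (AAGATGG), at 6.85% and 6.4% and the cAMP response element (TGACGTCA), at 6.85% and 2.59%, were rare in both. None of these motifs contains another. The longest run shared by the windows of ZNF85, ZNF91 and ZNF675, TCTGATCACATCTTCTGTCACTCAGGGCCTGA, spans 32 bases and was looked for after those sequences had been seen. It was found in 4 of the 15811 windows, those of the 3 genes and of ZNF208, which also gained H3K27me3 in DKO, while ZNF675 did not. A match is a description of the letters in these windows.

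Against sgControl, H3K27me3 of other zinc finger genes took another course, while DKO against SKO was alike on both arms of the chromosome. The 163 zinc finger genes of the long arm (19q), chosen by the same symbol pattern, averaged 34.0% ± 1.57 in DKO, 16.6% ± 0.188 in SKO and 32.5% ± 0.797 in sgControl (SD, n = 2 libraries each). Of these, 28 lost H3K27me3 in SKO (17.2%, background 3.15%) and 0 gained it (background 3.38%). In DKO 10 lost it (6.13%, background 3.0%) and 15 gained it (9.20%, background 3.82%). In DKO against SKO, 34 of the 163 genes of 19q (20.9%) gained it and 0 lost it, against 18 of 83 (21.7%) and 0 on 19p. The background there was 0.726% for gains and 0.366% for losses. The 251 zinc finger genes of other autosomes averaged 14.7% ± 0.381 in DKO, 11.2% ± 0.430 in SKO and 15.9% ± 0.631 in sgControl. The other 565 genes of 19p averaged 4.63% ± 0.0736 in DKO, 4.48% ± 0.262 in SKO and 5.87% ± 0.0283 in sgControl. In SKO the zinc finger genes of 19p thus lay above their sgControl mean and those of 19q below theirs, while SETDB1 peaks in both libraries were about as frequent on 19q (87.7%) as on 19p (89.2%). The difference between the arms was not tested over genes.

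Mean H3K9me3 of these other sets also differed between the genotypes. The zinc finger genes of 19q averaged 81.7% ± 0.409 in DKO, 84.2% ± 0.154 in SKO and 85.7% ± 0.0535 in sgControl (SD, n = 2 libraries each), so they were as widely covered as those of 19p in sgControl and slightly less in the knockouts. Losses on 19q numbered 7 in DKO (4.29%, background 4.23%) and 5 in SKO (3.07%, background 4.50%), which is not above the share over all genes by more than a trace. Gains numbered 0 in DKO (background 3.84%) and 0 in SKO (background 4.11%). The other 565 genes of 19p averaged 8.32% ± 0.330 in DKO, 8.20% ± 0.211 in SKO and 4.14% ± 0.0541 in sgControl. Their gains numbered 25 in DKO (background 3.84%) and 26 in SKO (background 4.11%), which is near the share over all genes. The higher mean H3K9me3 coverage in the knockouts was thus seen in other genes of the short arm too, but not as an excess of called gains.

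Genes of the KRAB corepressor machinery were mostly free of both marks. Of 18 listed genes, among them TRIM28, SETDB1 and the HP1 genes CBX1, CBX3 and CBX5, 0 were called for either mark in any comparison, and 13 had neither mark in any library. With backgrounds of 0.366% to 4.50% per call, 0 of 18 is near the share over all genes. H3K9me3 over a small part of the gene appeared in the knockouts at SETDB1, with 12.5% and 16.6% in DKO and 20.8% and 20.8% in SKO, against 0% and 0% in sgControl. MORC2, which works with the HUSH complex, had 10.9% and 12.8% in DKO and 9.11% and 10.9% in SKO, against 0% and 0% in sgControl. TASOR, a subunit of that complex, had 14.0% and 12.8% in DKO and 15.3% and 10.2% in SKO, against 0% and 0% in sgControl. These 3 differences are below the 25 percentage points of a call. SUV39H1, SUV39H2 and TRIM28 had 0% throughout. ZNF274, which encodes a KRAB zinc finger protein that brings SETDB1 to the ends of zinc finger genes, had 100% H3K9me3 in all 6 libraries. ATF7IP, the partner that stabilises SETDB1, had 59.98% and 69.3% H3K9me3 in DKO, 67.6% and 79.2% in SKO, and 57.7% and 53.6% in sgControl. A SETDB1 peak lay within 2 kb of 5 of the 18 genes in both libraries, against 20.6% of all protein-coding genes: ATF7IP, SUMO2, ZNF274, MORC2 and TASOR.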

How the data were processed

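Libraries were grouped by the sample titles, and 14 of 18 samples had a file. The 4 input samples were not used here. Chromatin was sheared by sonication after formaldehyde fixation, and Drosophila chromatin served as a spike-in, per the labels' protocols. The submitters' processing notes name the build hg38, deepTools 3.5.6, SICER, FastQC 0.12.1 and Trim Galore 0.6.10. No source used here gives the aligner, the read filters or the SETDB1 peak caller.

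The histone files deposited by the authors are domain lists, 1 per library, called with epic2, which joins enriched windows into broad domains. Each domain has a deposited read count of its own library, not normalised for depth or spike-in, and a deposited score, used only for ranking within its list. Domain edges lie on an 800 bp grid. The SETDB1 lists deposited by the authors hold narrow peaks per library, with a −log10 p-value of at least 5.00, used only as a filter in 1 alternative. The lists hold no input count or spike-in factor, so they cannot show a change in the total amount of a mark.

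Gene positions came from RefSeq on GRCh38.p14, the same assembly as hg38. Overlaps, percentages and densities were computed with Python 3.11.15, numpy 2.4.6, pandas 2.3.3, scipy 1.17.1 and matplotlib 3.10.9. Read density was tested with limma 3.58.1 in R 4.3.3, with a mean-variance trend, two-sided, over 1518 genes for H3K9me3 and 2228 for H3K27me3 that were covered over at least 50% in all 6 libraries, and adjusted by the Benjamini-Hochberg method with a threshold of 0.05. On simulated data with 200 genes changed by 1 on the log2 scale in DKO, density tests recovered 95.5% for H3K9me3 and 100% for H3K27me3. They ran over 1518 and 2228 genes and also gave 10 and 17 false calls. The percentage call was tried on a separate simulation of percentages over 19970 genes, where it recovered 200 of 200 for each mark. That recovery depends on the change and spread built into the simulation, so it gives no rate for the real libraries. Real libraries of the same genotype can lie far apart, as for ZNF433 in SKO, at 90.1% and 0% H3K27me3. Against sgControl the percentage call cannot call a gene whose sgControl libraries span the whole range, such as ZNF491, at 100% and 0% H3K27me3. Named genes are up to 10 members called in each direction and comparison, the 5 largest and smallest changes of density, the members with most SETDB1 peaks or with H3K27me3 or no H3K9me3 in sgControl, and 20 members named for position or function. Other members named were chosen after their values were seen. The members, lists and tests were chosen with earlier results of these data known. P-values measure the spread between these libraries, and intervals for counting error were not used because domains were called by the authors.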

Additional observations from a re-analysis of the deposited data

How the results depend on the processing

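With a smallest difference of 10 percentage points, H3K9me3 gains numbered 12 in DKO and 12 in SKO, H3K9me3 losses in DKO against SKO 1, H3K27me3 gains 21 in SKO and 30 in DKO against SKO, and H3K27me3 losses 2 in DKO. With 50 percentage points these were 1 and 1 H3K9me3 gains in DKO and SKO, 11 H3K27me3 gains in DKO against SKO, and H3K27me3 losses of 0 in DKO and 2 in SKO. Limma on the percentages gave 10 H3K27me3 gains in DKO against SKO and 2 losses in DKO against sgControl. H3K27me3 gains in DKO numbered 21 to 38 under the settings without a block.

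With the upper 50% of domains by score, mean H3K9me3 was 94.4% in DKO and 84.4% in sgControl, mean H3K27me3 was 38.6% in DKO, 17.0% in SKO and 1.24% in sgControl, and H3K27me3 losses numbered 0 in DKO and 0 in SKO. At equal covered length, mean H3K9me3 was 94.5% in DKO and 83.2% in sgControl, mean H3K27me3 was 38.6% in DKO and 16.2% in SKO, H3K27me3 losses in DKO numbered 2, and ZNF726 reversed to -18.8 percentage points in SKO. With 2 kb on either side mean H3K9me3 in DKO was 94.4%. Genes with both marks over at least 90% numbered 22 in DKO, 5 in SKO and 0 in sgControl, and over at least 10% they numbered 12 in sgControl. Joining starts within 500 kb gave 6 clusters.

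Among genes covered over at least 90%, higher H3K9me3 density was called for 45 members in DKO, 46 in SKO and 0 in DKO against SKO, and higher H3K27me3 density for 0, 0 and 0, since fewer genes enter. Scaled to all reads in domains, H3K27me3 density was higher in SKO for 2 members. A robust prior gave 0 members with higher H3K9me3 density in DKO against SKO.

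Leaving out 1 library gave 6 to 10 H3K9me3 gains in SKO (10 without sgControl replicate 1), 6 to 9 in DKO, and 0 to 1 losses in DKO against SKO (1 without DKO replicate 1). Without 1 library, H3K9me3 density in DKO against SKO was higher for 0 to 0 members and lower for 0 to 1. H3K27me3 density was higher for 2 to 4 members in SKO (2 without SKO replicate 1), and for 2 to 5 in DKO against SKO.

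Replicate numbers did not pair the libraries: deviations of same-numbered libraries from their genotype means correlated at -0.0134 to 0.05. With the replicate number as a block, limma gave 3 H3K9me3 gains in DKO and 3 in SKO, and H3K27me3 gains of 15 in DKO, 6 in SKO and 5 in DKO against SKO. The block left 0 higher and 0 lower H3K9me3 densities in DKO against SKO, and 2 higher H3K27me3 densities in SKO.

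For single genes, 856 of 1033 recomputed values kept direction and side of the threshold, 167 fell below it, 9 passed it and 1 reversed. The cause of these shifts was not tested.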
